A study of Mus musculus with 12 samples.

Results

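An R-loop forms where RNA stays paired with its DNA template and leaves the opposite DNA strand unpaired. They were immunoprecipitated here with S9.6, an antibody that binds DNA-RNA hybrids. The regions described are pairs of overlapping R-loop peaks, 1 from HEPA1-6 cells and 1 from mouse liver, in which the peak of one source carried the plus strand and the peak of the other carried the minus strand. The pairs were chosen by measured values, namely the position and strand of each peak in the authors' lists, with an overlap of 1 bp or more. There were 1543 such pairs, which is 14.0% (95% Wilson interval 13.4 to 14.7) of the 10990 overlapping pairs whose peaks both had a strand. The other 9447 pairs carried the same strand in both lists. Plus in HEPA1-6 with minus in liver made up 844 pairs (7.68% of stranded pairs) and the reverse made up 699 (6.36%). These counts are what the choice of pairs fixed and are given as a description.

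The study asked how R-loops relate to genome editing with adeno-associated virus vectors. It had 12 libraries in 6 groups of 2, which were S9.6 immunoprecipitates, S9.6 immunoprecipitates with RNase H1, and inputs, from each source. HEPA1-6 is a mouse hepatoma cell line, recorded as wild type (WT) and untreated, and the liver came from C57/Bl6 mice, also WT and untreated. The age and number of the animals are not given in the labels used here. RNase H1 degrades the RNA of a DNA-RNA hybrid, and those libraries have no peak list of their own here.

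The data are 2 peak lists, 1 per source, whose peak names say that merged immunoprecipitates were compared with input. Each list is recorded under replicate 1 of its source, and which libraries were merged is not stated. The HEPA1-6 list held 28717 peaks and the liver list 14908. With 1 list per source there is no replicate spread, no test was possible between the sources, and the read depth is unknown. The intervals given below cover counting error only. Pairs are also not independent, because the members used 1283 distinct HEPA1-6 peaks and 1525 distinct liver peaks. Marker genes of hepatocytes had a peak on 6 of 24 in HEPA1-6 and on 5 of 24 in liver. Cell cycle genes had a peak on 11 of 12 in HEPA1-6 and on 9 of 12 in liver, and markers of other liver cells on 1 of 12 in each. Under any stranded pair lay 6 of the 24 hepatocyte genes, 9 of the 12 cell cycle genes and 1 of the 12 others. For all protein-coding genes the count was 5735 of 21883. On these counts the list labelled liver did not hold more of the hepatocyte genes than the HEPA1-6 list. The liver list held fewer peaks, and the share of all genes with a peak in each list is not given here. The counts therefore do not show whether hepatocyte genes had peaks more or less often than other genes in either list. In what follows, "liver" means the source as labelled. An R-loop peak on a gene is not a measure of its RNA level.

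R-loops form mostly behind RNA polymerase, so that the strand of the hybrid's RNA follows the direction of transcription. Mammalian genes often lie close to a gene of the other strand. In a head-to-head couple the start sites face away from each other and may share a CpG-rich promoter, in a tail-to-tail couple the ends converge, and in an overlapping couple the same bases are transcribed both ways, often by a protein-coding gene and an antisense long noncoding RNA (lncRNA). How the authors gave a strand to a peak is not stated in the sources used here, and gene annotation may have entered it. The labels cite a published strand-specific mapping protocol for the extraction, but the library steps they list (sonication, end repair, A-tailing and adapter ligation) name none that keeps the strand. Whether a peak's strand was read from the DNA is therefore unknown, and "strand" below means the sign in the authors' lists. The gene contents below are therefore descriptions of the pairs.

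The start regions that follow are shown because each lies in the bases covered by both peaks of an opposite-strand pair. They come from the pair ranked highest by score in each kind of pair that holds such a region in the promoter table, and from the Trp53 and Wrap53 locus, which was looked up by name. They are bases upstream of an annotated start site and outside annotated genes, from RefSeq on GRCm38 (the same build as mm10), written 5′ to 3′ on the strand of the named gene with CpG dinucleotides in capitals. The intervals are chr2:32961655-32961711 (plus strand, the whole gap between Lrsam1 and Rpl12), chr11:17953876-17953969 (minus, the whole gap between Etaa1os and Etaa1), chr11:69580251-69580347 (minus, the whole gap between Trp53 and Wrap53), chr15:80254934-80255183 (plus), chr17:15024546-15024795 (minus) and chr7:73558396-73558645 (minus).
Rpl12 and Lrsam1, head-to-head: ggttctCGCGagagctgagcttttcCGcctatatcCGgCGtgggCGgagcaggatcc
Etaa1 and its antisense Etaa1os, head-to-head: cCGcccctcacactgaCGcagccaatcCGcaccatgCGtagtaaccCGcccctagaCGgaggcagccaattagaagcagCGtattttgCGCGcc
Wrap53 and Trp53, head-to-head: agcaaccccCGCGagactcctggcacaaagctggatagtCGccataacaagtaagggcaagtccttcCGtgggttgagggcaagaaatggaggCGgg
Atf4, tail-to-tail with Rps19bp1: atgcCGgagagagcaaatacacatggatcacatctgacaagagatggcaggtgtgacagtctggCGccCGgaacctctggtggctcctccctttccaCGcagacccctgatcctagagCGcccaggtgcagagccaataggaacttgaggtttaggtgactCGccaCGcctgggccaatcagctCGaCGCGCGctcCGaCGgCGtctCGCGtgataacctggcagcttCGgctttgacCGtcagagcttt
Gm52298, overlapping Gm3435: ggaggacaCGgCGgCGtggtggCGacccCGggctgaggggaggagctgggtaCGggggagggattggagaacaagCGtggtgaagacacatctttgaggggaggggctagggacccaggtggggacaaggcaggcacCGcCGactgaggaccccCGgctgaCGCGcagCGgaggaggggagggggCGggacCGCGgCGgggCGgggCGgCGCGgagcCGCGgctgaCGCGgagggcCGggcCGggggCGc
Chaserr, the only gene under its pair: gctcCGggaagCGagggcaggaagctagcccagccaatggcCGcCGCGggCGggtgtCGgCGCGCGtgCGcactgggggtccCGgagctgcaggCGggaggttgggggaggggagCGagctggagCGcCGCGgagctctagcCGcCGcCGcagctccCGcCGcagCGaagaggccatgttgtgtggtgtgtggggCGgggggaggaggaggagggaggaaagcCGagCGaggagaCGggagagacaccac
The 3 gaps between head-to-head genes were short. The gap of 57 bases at Rpl12 held 6 CpGs, that of 94 at Etaa1 held 9 and that of 97 at Wrap53 held 5, with 63.16%, 61.7% and 57.73% G and C. The 250 bases before Chaserr held 27 CpGs, those before Gm52298 28 and those before Atf4 18.

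Opposite-strand pairs lay over several genes more often than same-strand pairs. Of the 1543 pairs, 989 (64.1%, 61.67 to 66.45) touched 2 or more annotated genes, against 25.04% of same-strand pairs, a difference of 39.05 percentage points (36.47 to 41.56). A single gene was touched by 530 (34.35%) against 71.37%, and 24 (1.555%) touched no gene against 3.588%. In all, 2177 genes lay under the opposite-strand pairs, of which 1711 were protein-coding and 255 were lncRNA genes. A strand was listed for 1648 of them, and chromosome 18 genes have none in the tables used.

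Annotated genes of both strands lay under 670 of the 1543 pairs (43.42%, 40.97 to 45.91) and under 12.8% of same-strand pairs, a difference of 30.62 points (28.08 to 33.2). Read the other way, 35.66% of the 1879 stranded pairs over genes of both strands carried opposite strands (33.52 to 37.85), against 7.288% of the 7272 pairs over 1 gene (6.713 to 7.908) and 14.0% of all. Pairs over several genes that all lay on 1 strand were at 10.32% (39 of 378) with an interval of 7.64 to 13.79, which overlapped that of pairs over 1 gene and lay below that of pairs over both strands. Pairs over several genes of which some have no listed strand were at 25.5% (280 of 1098, 23.01 to 28.16) and made up 18.15% of members, so that some of them may belong to either of these classes. Pairs over no gene were at 6.612% (24 of 363). The share did not rise steadily with the number of genes. It was 27.34% over 2 genes, 39.53% over 3, 29.37% over 4 and 35.23% over 5 or more.

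**Figure D1:**
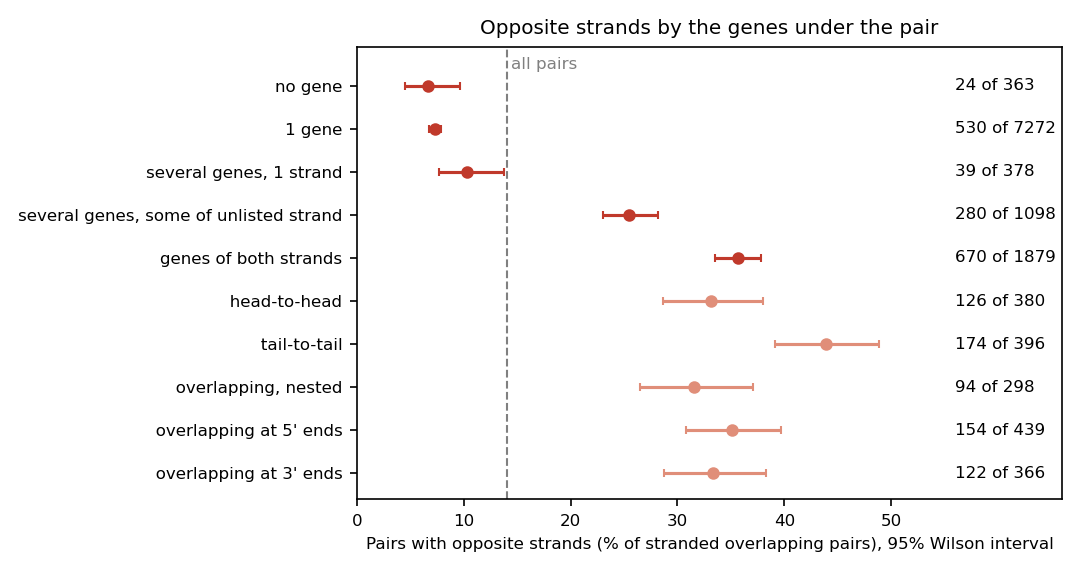
Share of stranded overlapping pairs that carried opposite strands (x axis, percent, bars are 95% Wilson intervals), by the annotated genes the pair touched (dark points) and, for genes of both strands, by their arrangement (light points), with the dashed line at the 14.0% of all pairs. Pairs over no gene, 1 gene or genes of 1 strand lie between 6.612% and 10.32%, and all arrangements of genes of both strands lie between 31.54% and 43.94%.

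Among the 670 pairs over genes of both strands, the plus and minus gene nearest each other (or overlapping most) overlapped in 370 (55.22%), was tail-to-tail in 174 (25.97%) and was head-to-head in 126 (18.81%). Tail-to-tail couples had the highest share of opposite strands, 43.94% of 396 pairs (39.13 to 48.86). Head-to-head couples were at 33.16% of 380 (28.61 to 38.04) and overlapping couples at 33.54% of 1103 (30.82 to 36.38). The tail-to-tail interval lay above those of head-to-head and of all overlapping couples, and overlapped that of couples that overlap at their 5′ ends (30.76 to 39.66). Within overlapping couples, nested genes (31.54%), genes overlapping at their 5′ ends (35.08%) and genes overlapping at their 3′ ends (33.33%) had intervals that overlapped each other. Tail-to-tail couples were at 42.36% of 229 pairs (36.14 to 48.83) where the genes ended under 1 kb apart. Where they ended 1 to 5 kb apart the share was 46.01% of 163 (38.54 to 53.67). Head-to-head couples were nearly all close, with 362 of 380 starting under 1 kb apart. Those 362 were at 33.7% (29.03 to 38.72), so at gaps under 1 kb the intervals of both arrangements overlapped. The arrangements were not compared within classes of width.

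Couples of protein-coding genes carried opposite strands more often than couples of an lncRNA and a protein-coding gene. The shares were 41.03% of 1126 (38.19 to 43.93) and 26.96% of 716 (23.83 to 30.32). Restricted to couples that overlap, 38.34% of 566 protein-coding couples and 27.57% of 515 couples of an lncRNA and a protein-coding gene had opposite strands. The kinds of couple were not compared within classes of width, and only genes of listed strand could form a couple. Of the 670 members over both strands, 462 (68.96%) had a protein-coding couple and 193 (28.81%) an lncRNA with a protein-coding gene.

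The head-to-head pair ranked highest by score lay on chromosome 2 over Rpl12 and Lrsam1. Rpl12 codes for a protein of the large ribosomal subunit, and Lrsam1 codes for a ubiquitin ligase. The HEPA1-6 peak at chr2:32960072-32965686 was on the minus strand with a score of 380, and the liver peak at chr2:32960325-32965499 was on the plus strand with a score of 147. Rpl12 is on the plus strand and Lrsam1 on the minus strand, so each peak carried the strand of a different gene of the couple. Both peaks touched both genes, so the choice of pairs alone sets this. A peak's score is the authors' value on a scale that is not stated, and it is used here only to rank peaks within a list. Pairs were ranked by the sum of their peaks' ranks, lowest sum first. The pair ranked highest need not have the highest score in either list.

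The other head-to-head pairs ranked highest had gaps of 94 to 274 bases. H2az1, which codes for a histone variant, and the minus-strand gene Gm43403 start 160 bases apart on chromosome 3, with a plus HEPA1-6 peak (score 294) and a minus liver peak (score 174). Polr1d, a shared subunit of RNA polymerases I and III, and Lnx2 start 142 bases apart on chromosome 5, with scores of 112 in HEPA1-6 (plus) and 98 in liver (minus). Arpc4, a subunit of the actin-nucleating Arp2/3 complex, and Tada3, a subunit of histone acetyltransferase complexes, start 274 bases apart on chromosome 6, with scores of 127 (plus) and 64 (minus). In all of these the peaks of both sources touched both genes. The widest head-to-head pair by shared bases lay over Cct5, a subunit of the cytosolic chaperonin, and Atpsckmt on chromosome 15, where the sources shared 15255 bases, with a plus HEPA1-6 peak (score 113) and a minus liver peak (score 61).

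The tail-to-tail pair ranked highest by score lay on chromosome 15 over Atf4, the transcription factor of the integrated stress response, and Rps19bp1. Atf4 on the plus strand and Rps19bp1 on the minus strand end 3068 bases apart. The HEPA1-6 peak, chr15:80254301-80265393, was on the minus strand (score 373), and the liver peak, chr15:80254301-80260997, started at the same base and was on the plus strand (score 198). Rps21, a small ribosomal subunit gene, and Cables2 end 94 bases apart on chromosome 2, with a plus HEPA1-6 peak of score 308 and a minus liver peak of score 160 that shared 9287 bases.

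In other tail-to-tail pairs the liver peak was narrower and lay over 1 gene of the couple. At Rack1, which codes for a ribosome-bound scaffold protein, and Trim41 on chromosome 11, the HEPA1-6 peak of 8481 bases covered both genes and was on the minus strand (score 248). The liver peak of 1741 bases lay over Trim41 alone, a minus-strand gene, and yet was on the plus strand (score 222). At Ap2a2, a subunit of the clathrin adaptor AP-2, and Muc6, a gastric mucin gene, on chromosome 7 the liver peak lay over Muc6 alone and carried its minus strand (score 96), and the HEPA1-6 peak covered both and was on the plus strand (score 88). At Dipk1b and the snoRNA host gene Snhg7 on chromosome 2, the liver peak lay over minus-strand Snhg7 and its snoRNAs but was on the plus strand (score 70 against 108 in HEPA1-6). A liver peak over 1 gene of a couple thus carried that gene's strand at Muc6 and the other strand at Trim41 and Snhg7.

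**Figure D2:**
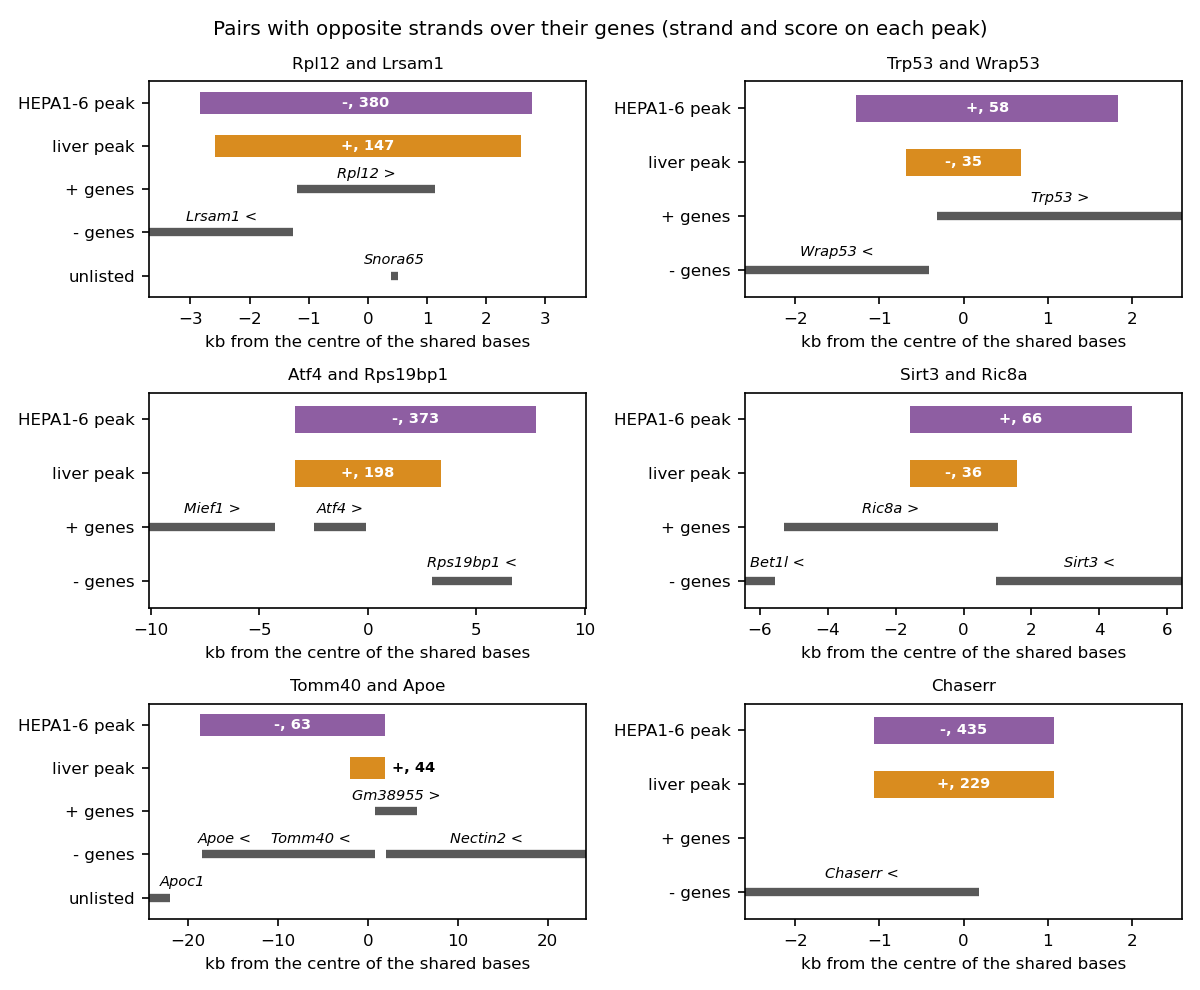
Maps of 6 opposite-strand pairs, with the x axis in kb from the centre of the bases shared by both peaks, HEPA1-6 peaks in purple and liver peaks in orange (strand and score printed on or beside each), and RefSeq genes as grey bars by strand (> plus, < minus, unlisted where the tables give none). At Rpl12 and Lrsam1, Trp53 and Wrap53, Atf4 and Rps19bp1, and Sirt3 and Ric8a the couple has a gene of each strand under the shared or joined bases, at Tomm40 and Apoe the liver peak lies at the edge of the wider HEPA1-6 peak, and at Chaserr both peaks have the same edges over 1 gene.

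The pair ranked highest by score of all lay over nested genes on chromosome 16. Cmss1 on the minus strand and Filip1l on the plus strand share 219528 annotated bases, and the peaks there were narrow, 488 bases in HEPA1-6 (minus, score 1820) and 486 in liver (plus, score 2397). Their scores were far above the medians of their lists, 21 in HEPA1-6 and 22 in liver. Hnrnpf, an RNA-binding protein gene on the plus strand of chromosome 6, has 4933440N22Rik of the minus strand nested with it. The HEPA1-6 peak of 24224 bases there was on the minus strand (score 181), and the liver peak of 3816 bases was on the plus strand (score 483). Hnrnpdl, another RNA-binding protein gene, overlaps Enoph1 by 909 bases at the 5′ ends on chromosome 5. The plus HEPA1-6 peak (score 201) covered both, and the minus liver peak (score 131) lay over Hnrnpdl, a minus-strand gene. The RefSeq genes Gm3435 and Gm52298 overlap by 9687 bases at their 3′ ends on chromosome 17, with a minus HEPA1-6 peak (score 261) and a plus liver peak (score 157) starting at the same base. Gm3435 had another opposite-strand pair at its start, over Gm3448, with the strands the other way round (plus in HEPA1-6, score 203, and minus in liver, score 141).

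Peaks over a single gene nearly always carried that gene's strand. This held for 93.42% of 17538 HEPA1-6 peaks and 90.65% of 7260 liver peaks over all of each list. Peaks over genes of both strands carried the strand of the gene with the most bases under them in 60.78% of cases in HEPA1-6 and 55.23% in liver. Among such peaks that belong to opposite-strand pairs, the share was 48.59% of 461 in HEPA1-6 (44.06 to 53.15). In liver it was 46.98% of 315 (41.54 to 52.5). Where both peaks of a pair lie mostly over the same gene, they cannot both carry its strand. The choice of pairs thus partly sets these shares, and they are not to be set against those of all peaks. A strand was also recorded for 1593 of 2570 HEPA1-6 peaks with no gene under them (61.98%) and for 1187 of 3244 such liver peaks (36.59%).

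In the 670 opposite-strand pairs over genes of both strands, each peak touched a gene of its own strand in 549 (81.94%, 78.85 to 84.67). Only the HEPA1-6 peak did so in 118 (17.61%), only the liver peak in 3, and neither in 0 of 670. The liver peak touched genes of both strands in 330 (49.25%), genes of its own strand alone in 222 (33.13%), and genes of the HEPA1-6 strand alone in 96 (14.33%). The HEPA1-6 peak touched genes of both strands in 655 (97.76%). A peak counts as touching a gene from 1 shared base on. A peak over genes of both strands touches 1 of its own strand whichever sign it carries. The 549 and the 0 are therefore largely set by the choice of class. Only peaks over genes of 1 strand could go either way, as the liver peaks did in 222 and 96 pairs.

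In 617 of the 1543 pairs (39.99%, 37.57 to 42.45) some gene lay under only 1 of the peaks, against 17.04% of same-strand pairs. This share fell to 9.895% (against 4.386%) where the peaks had to share 50% of both, and was 26.49% (against 11.62%) with each HEPA1-6 peak used once. In 588 of the 1543 pairs (38.11%) the HEPA1-6 peak touched a gene that the liver peak did not, against 16.28% of same-strand pairs. The liver peak touched a gene outside the HEPA1-6 peak in 30 (1.944% against 0.8151%). Of pairs over genes of both strands, 38.6% of those whose peaks touched different genes carried opposite strands (35.7 to 41.59), and so did 31.98% of those whose peaks touched the same genes (28.9 to 35.22). Pairs over the same genes in both sources were therefore well represented, with 267 members.

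Over a single gene there were 530 members. The strand of the gene was listed for 441 of them, and the HEPA1-6 peak carried it in 189 (42.86%) and the liver peak in 252 (57.14%), where the choice of pairs lets exactly 1 of the peaks carry it. The peak that went against the gene was thus from HEPA1-6 in some pairs and from liver in others. Nearby genes differed between these pairs and the 5178 same-strand pairs over 1 gene of listed strand. The nearest gene of the other strand lay at a median of 4926 bp (2957 to 7636) from the opposite-strand pairs and 27738.5 bp (26702 to 29012) from the same-strand pairs. It lay within 1 kb of 84 of 441 (19.05%, against 2.878%), within 5 kb of 222 (50.34%, against 11.84%) and within 10 kb of 256 (58.05%, against 22.81%). The rise was steepest at short range, with 201 of 441 (45.58%) within 3 kb, a distance chosen after the values were seen, against 6.759%. The part of these neighbours in the strand of a peak was not tested.

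**Figure D3:**
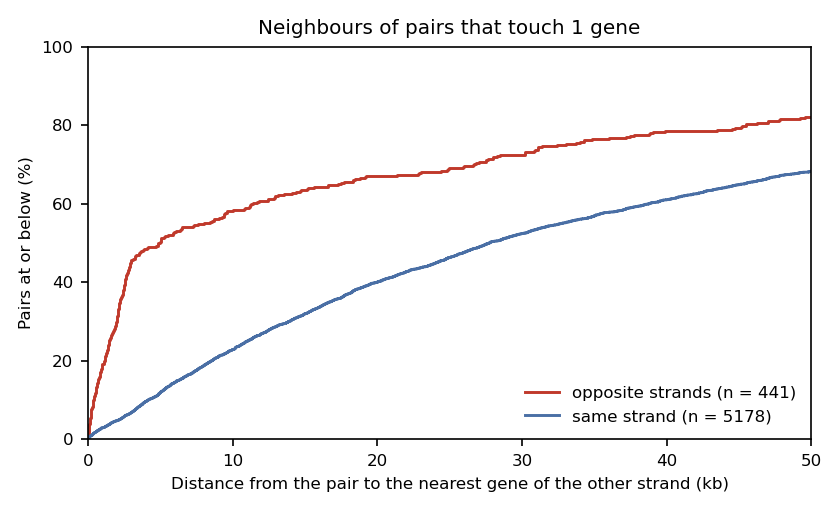
Cumulative share of pairs over 1 gene of listed strand (y axis, percent) by the distance from the pair to the nearest gene of the other strand (x axis, kb, drawn up to 50 kb), for 441 opposite-strand pairs (red) and 5178 same-strand pairs (blue). The red curve climbs to 45.58% at 3 kb and 50.34% at 5 kb, and the blue curve reaches 11.84% at 5 kb and 22.81% at 10 kb.

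Some pairs over 1 gene had such a neighbour and others had none nearby. Fam222a on chromosome 5 lay under the pair with the most shared bases of this kind, 15147, with a minus HEPA1-6 peak (score 100) and a plus liver peak (score 49). The gene is on the plus strand, and the minus-strand gene Trpv4, a calcium-permeable channel gene, lay 1595 bp away. Msh6, a mismatch repair gene of the plus strand on chromosome 17, had a minus HEPA1-6 peak (score 35) and a plus liver peak (score 32) 700 bp from Fbxo11 of the minus strand. Far from any listed gene of the other strand were Myo3a on chromosome 2, whose nearest such gene was 283399 bp away, Rpl34 on chromosome 3 (90228 bp) and Zc3h7a on chromosome 16 (59079 bp). The Myo3a pair had scores of 1865 in HEPA1-6 (minus) and 1675 in liver (plus, the strand of the gene). The Zc3h7a pair had 680 (minus, the strand of the gene) and 990 (plus), and the Rpl34 pair had 388 (minus, the strand of the gene) and 171 (plus).

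In some members the peaks of both sources covered the same bases. Both peaks had the same start and end in 81 members (5.25%, against 6.362% of same-strand pairs, a difference of -1.112 points with an interval of -2.24 to 0.2043). Of all 682 stranded pairs with identical edges, 11.88% carried opposite strands (9.66 to 14.52). Among the 81, 37 touched 1 gene and 30 touched genes of both strands. For the 32 over 1 gene of listed strand, the HEPA1-6 peak carried that strand in 22 and the liver peak in 10.

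The identical pair ranked highest by score, chr7:73557142-73559284, lay over the start of Chaserr, an lncRNA gene next to the chromatin remodeller gene Chd2. HEPA1-6 was minus, the strand of the gene (score 435), and liver was plus (score 229). At H1f3, a linker histone gene on chromosome 13, the interval of 1774 bases was minus in HEPA1-6 (score 291) and plus, the strand of the gene, in liver (score 194), with H4c6 of the minus strand 2884 bp away. At Cyba, a subunit gene of the phagocyte NADPH oxidase on chromosome 8, a shared interval of 395 bases was minus in HEPA1-6 (score 184), the strand of the gene, and plus in liver (score 88), 2957 bp from Il17c. At Tyw5 on chromosome 1, 456 shared bases were minus in HEPA1-6 (score 186), the strand of the gene, and plus in liver (score 68), 2058 bp from Maip1. Wac on chromosome 18 (scores 399 and 155) and the ribosomal gene Rpl8 on chromosome 15 (258 and 125) were plus in HEPA1-6 and minus in liver, and the strands of these genes were not listed. The HEPA1-6 peak thus carried the strand of the gene at Chaserr, Cyba and Tyw5, and the liver peak did at H1f3.

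Transcripts named as antisense or opposite-strand were a small part of the members. They lay under 27 of the 1543 pairs (1.75%, 1.205 to 2.534) and under 48 same-strand pairs (0.5081%), a difference of 1.242 points (0.6728 to 2.036). Of the 75 stranded pairs over such a transcript, 36% had opposite strands (26.06 to 47.3). An lncRNA of any name that overlapped a protein-coding gene of the other strand lay under 142 members (9.203%) and 3.948% of same-strand pairs. Etaa1, which codes for an activator of the replication stress kinase ATR, and its antisense gene Etaa1os start 94 bases apart on chromosome 11, and the bases between them are among those printed above. The HEPA1-6 peak there was minus, the strand of Etaa1 (score 115), and the liver peak was plus, the strand of Etaa1os (score 70). Ptprtos is nested in the receptor phosphatase gene Ptprt on chromosome 2, where a pair sharing 10859 bases was plus in HEPA1-6, the strand of Ptprtos (score 156), and minus in liver, the strand of Ptprt (score 61). The pair ranked highest by score among them lay over Epb41l4aos and Epb41l4a on chromosome 18 (280 in HEPA1-6, minus, and 145 in liver, plus). The genes there have no listed strand.

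The imprinted Kcnq1 locus on chromosome 7 held the most members of any locus looked up by name, 5 of its 13 stranded pairs. Kcnq1ot1 is an antisense lncRNA within the potassium channel gene Kcnq1 that silences neighbouring genes on the paternal chromosome. In 4 of the 5 pairs HEPA1-6 was plus and liver was minus, the strand of Kcnq1ot1, and in 1 pair it was the reverse. The widest of them had a HEPA1-6 peak of 19404 bases at chr7:143277344-143296747 (score 52) and a liver peak at chr7:143294325-143296747 (score 32) that ended at the same base. The other 4, of which a pair shared a HEPA1-6 peak, had HEPA1-6 scores of 16 to 35 and liver scores of 15 to 21. Hnf4a, a liver transcription factor gene, and Hnf4aos overlap on chromosome 2 and had 1 of 5, plus in HEPA1-6 (score 19) and minus in liver (score 13).

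Of 15 loci listed as overlapping or sense-antisense couples, 11 had a stranded pair and 7 had a member, with 13 members of 43 stranded pairs beside 14.0% of all pairs. At Trp53, the p53 tumour suppressor gene, and Wrap53, a telomerase assembly gene, the HEPA1-6 peak at chr11:69579377-69582500 was plus, the strand of Trp53 (score 58), and the liver peak at chr11:69579970-69581346 was minus, the strand of Wrap53 (score 35). Both covered the 97 bases between the starts. Ercc1, a nucleotide excision repair gene of the plus strand on chromosome 7, had a minus HEPA1-6 peak and a plus liver peak, each of score 31. That pair touched Ercc1 alone, 8569 bp from its partner Cd3eap. The Msh6 pair described above also touched a single gene. The members counted here are thus those at the listed genes and do not all lie where a couple overlaps. At Nudt6 on chromosome 3, the member lay at its overlap with Spata5 rather than with Fgf2, and had scores of 18 (plus, HEPA1-6) and 15 (minus, liver). The imprinted couples Igf2r and Airn (3 stranded pairs) and Gnas and its antisense (3) had no member.

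Of 12 loci listed as head-to-head couples, 10 had a stranded pair and 4 had a member, with 6 members of 25 stranded pairs. The members lay partly at the other ends of those genes. At Sirt3, the mitochondrial deacetylase gene, the pair lay where Sirt3 and Ric8a overlap by 69 bases at their 3′ ends (plus in HEPA1-6, score 66, and minus in liver, score 36). At Psmd13, a proteasome subunit gene, it lay tail-to-tail with Cox8b across 299 bases (minus in HEPA1-6, score 82, and plus in liver, score 33). At Surf1, a cytochrome c oxidase assembly gene, and Surf2 on chromosome 2, the HEPA1-6 peak was plus (score 33), and the liver peak was minus (score 32) over Surf4 alone. The collagen couple Col4a1 and Col4a2 on chromosome 8 had 1 member of 1 stranded pair, minus in HEPA1-6 (score 17) and plus in liver (score 21). Ppat, which codes for the first enzyme of purine synthesis, had 2 members of 3, both plus in HEPA1-6 and minus, the strand of Ppat, in liver. Hspd1 and Hspe1 (2 stranded pairs) and Gart and Son (3) had none.

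Of 12 liver loci, 7 had a stranded pair and 4 had a member, namely Afp, Apoa2, Apoe and Hnf4a, with 4 members of 19 stranded pairs. Loci differed in their number of stranded pairs, and these lists are too short to set against the 14.0% of all. At Apoe, the apolipoprotein E gene on chromosome 7, the HEPA1-6 peak of 20641 bases at chr7:19695969-19716609 was minus, the strand of Apoe and Tomm40 (score 63). The liver peak at chr7:19712708-19716609 ended at the same base, lay over Tomm40 and the plus-strand gene Gm38955, and was plus (score 44). At Apoa2 on chromosome 1, both peaks also touched Nr1i3 of the plus strand and Tomm40l, whose strand is not listed. The HEPA1-6 peak there was plus, the strand of Apoa2 (score 37), and the liver peak was minus (score 38). At Afp, alpha-fetoprotein, on chromosome 5, the HEPA1-6 peak was minus (score 54), and the liver peak was plus, the strand of Afp (score 19), but lay past the gene. Albumin had 2 stranded pairs and haemopexin (Hpx) 2, and transferrin (Trf) 3, with no member.

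The shares of the gene families looked up lay on both sides of that of protein-coding genes at large. Of 5735 protein-coding genes under any stranded pair, 1711 (29.83%) lay under an opposite-strand pair. The count was 20 of 75 cytosolic ribosomal protein genes (26.67%, 17.98 to 37.63), among them Rpl12, Rpl34, Rpl8, Rps21 and Rps3. It was 12 of 33 histone genes (36.36%, 22.19 to 53.38), among them H1f3, H2az1 and H2ax, and 3 of 16 aminoacyl-tRNA synthetase genes (18.75%, Cars, Mars1 and Yars). Cell cycle genes were at 5 of 9 (Aurka, Mcm2, Mki67, Plk1 and Top2a), hepatocyte genes at 4 of 6 (Apoa2, Apoe, Hamp and Hnf4a), and markers of other liver cells at 0 of 1. The intervals of these small lists all include 29.83%, except that of the hepatocyte genes, which runs from 30 to 90.32. That list rests on 6 genes, too few to set it apart. A gene under either peak of a pair is counted, and Apoe counts through the HEPA1-6 peak alone.

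Members were wider than same-strand pairs, most of all in HEPA1-6. The median HEPA1-6 peak was 5168 bp (4816 to 5422) in opposite-strand pairs and 3416 bp (3317 to 3490) in same-strand pairs, and 1091 bp over the whole list. The median liver peak was 1288 bp (1230 to 1381) against 1018 bp (997 to 1038), and 881 bp over the list. The HEPA1-6 peak was a median of 3.244 times as wide as its liver partner, against 2.652 times in same-strand pairs. The liver peak lay wholly inside the HEPA1-6 peak in 89.83% of members and the reverse held in 8.62%. Where the peaks had to share 50% of both, the medians were 2858 bp in HEPA1-6 (against 1957 bp) and 2313 bp in liver (against 1621 bp), and the higher-scoring 50% of each list had a liver median of 2024.5 bp. Scores differed less. The median HEPA1-6 score was 41 (40 to 43) against 36 (35 to 36), and the median liver score was 24 (23 to 25) against 23 (22 to 23).

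Counting each peak once gave the same order. The HEPA1-6 peaks of members had a median of 4279 bp and a score of 40, against 2629.5 bp and 33 for those in same-strand pairs alone. The liver peaks had 1271 bp and 24, against 1004 bp and 23. The widths differed less among pairs over 1 gene, where the HEPA1-6 medians were 3099.5 bp (2790 to 3501) and 2928 bp (2844 to 3010) with overlapping intervals. Among pairs over genes of both strands they were 7657 bp and 5991 bp.

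**Figure D4:**
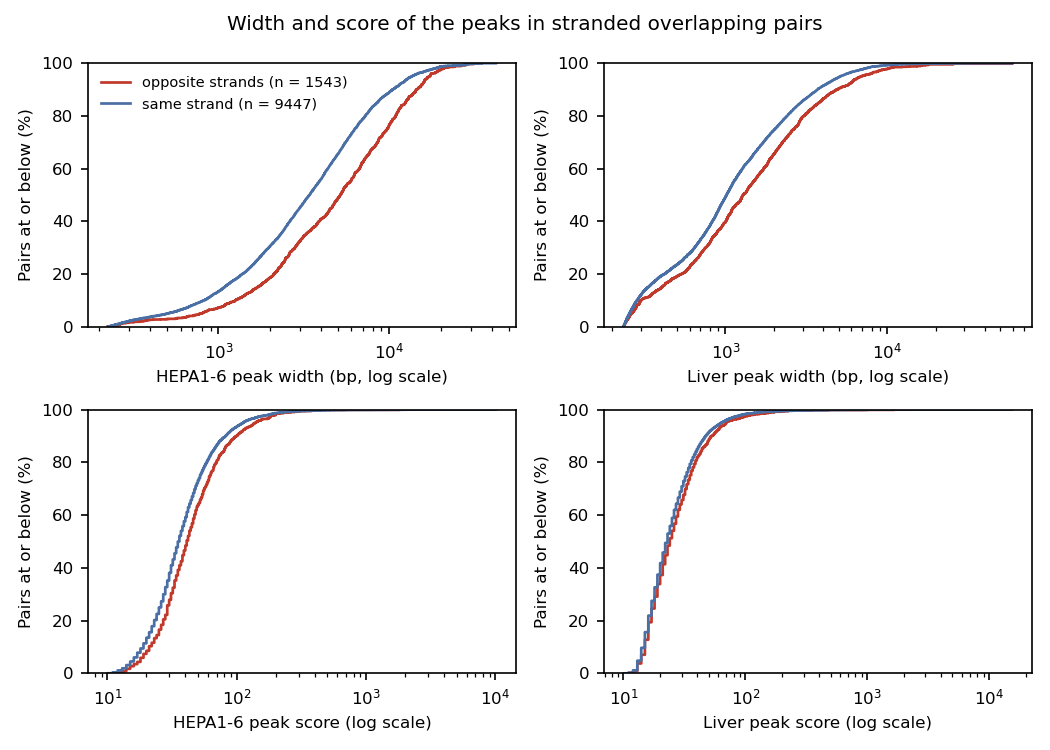
Cumulative share of pairs (y axis, percent) by peak width (upper panels, bp, log scale) and peak score (lower panels, log scale) in HEPA1-6 (left) and liver (right), for 1543 opposite-strand pairs (red) and 9447 same-strand pairs (blue). The curves stand furthest apart for HEPA1-6 width, with medians of 5168 and 3416 bp, and nearly meet for liver score, with medians of 24 and 23.

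A wide pair touches more genes, so the share of opposite strands was also read within classes of width. The joined interval of both peaks was sorted into 4 classes of nearly equal number, 234 to 1882, 1883 to 3719, 3720 to 6857 and 6861 to 59575 bp. Over all pairs the share of opposite strands was 8.47%, 11.95%, 13.32% and 22.42% from the narrowest class to the widest. Over 1 gene it was nearly level, at 6.127%, 7.967%, 7.471% and 7.983%. Over genes of both strands it was 30.56%, 28.74%, 31.9% and 41.14%, above the share over 1 gene in every class. Genes of both strands lay under a larger share of opposite-strand than of same-strand pairs in each class, 23.61% against 4.964% in the narrowest and 60.71% against 25.11% in the widest. The part of width in the strand difference was not tested beyond these classes.

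**Figure D5:**
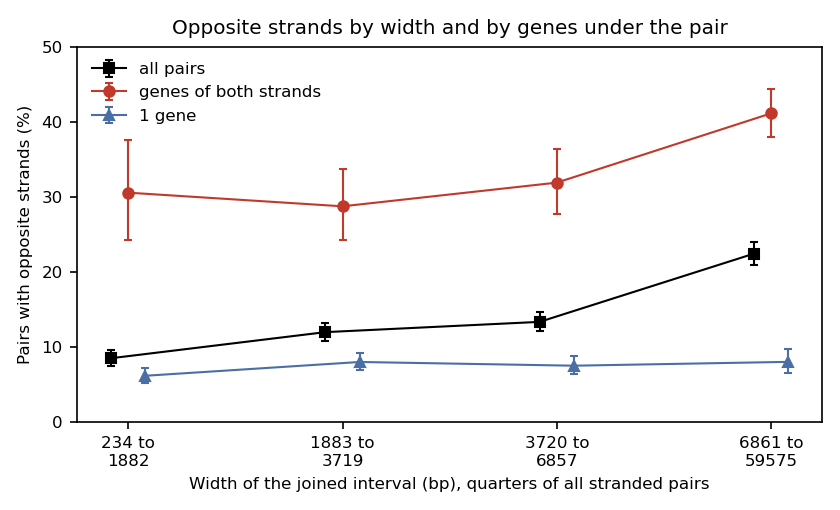
Share of stranded pairs with opposite strands (y axis, percent, bars are 95% Wilson intervals) in 4 classes of the joined interval's width (x axis, bp), for all pairs (black squares), pairs over genes of both strands (red circles) and pairs over 1 gene (blue triangles). The blue points stay between 6.127% and 7.983%, and the red points lie between 28.74% and 41.14%.

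Start sites of both strands lay within 295 members (19.12%, 17.23 to 21.16) and within 6.108% of same-strand pairs. No start site lay within 769 members (49.84%) against 70.87%. Start sites were counted in the joined interval, with a median width of 5352 bp in members and 3527 bp in same-strand pairs. These shares were not compared within classes of width. The upstream bases of start sites in the shared part of members, 599 promoters of 508 genes, were rich in G and C, with a median of 64% (62.8 to 64.8) and 20 CpGs in 250 bases. Promoters under same-strand pairs alone were like them, with 63.2% (62.8 to 63.6) and 19 CpGs, and all 32851 promoters of the table had 52.4% and 6 CpGs. The letters TATAA, searched on both strands, were in 11.02% of the members' promoters, 10.8% of those under same-strand pairs alone and 22.78% of all. The letters CCAAT were in 34.22%, 35.39% and 33.85%. The composition of the start regions thus set the promoters under R-loop peaks apart from all promoters, with little difference between opposite-strand and same-strand pairs.

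Members lay on every chromosome except Y, which had 7 stranded pairs. The share of opposite strands was highest on chromosomes 14 (22.32%, 25 of 112), 9 (22.01%) and 7 (21.51%, 179 of 832). It was lowest on chromosomes 18 (6.25%, 19 of 304, 4.037 to 9.555) and 15 (9.71%, 124 of 1277, 8.205 to 11.46). A HEPA1-6 peak often held more than 1 liver peak. Of the 1686 HEPA1-6 peaks with 2 or more stranded liver peaks, 342 (20.28%) had liver peaks of both strands, and up to 5 opposite-strand liver peaks lay under a single HEPA1-6 peak. At the edge of the rule, the smallest overlap among members was 4 bases, 5 members shared 50 bases or fewer, and the closest opposite-strand peaks of the sources that did not overlap were 134 bp apart.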

How the data were processed

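DNA-RNA hybrids were immunoprecipitated with S9.6 from HEPA1-6 cells and mouse liver, sonicated, made into libraries and sequenced, per the labels' protocols. The submitters' processing notes name mm10, CASAVA 1.8.2, cutadapt, Bowtie2, bedtools, SAMtools and MACS2, without roles. The authors deposited 1 peak list per source, recorded under replicate 1 and named as merged in the file. The deposited score of each peak has no stated scale (range 10 to 29098 in HEPA1-6 and 10 to 15543 in liver). How strands were assigned is not given in the sources used here.

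Overlapping peaks were paired (1 bp or more) in Python 3.11.15 with pandas 2.3.3, NumPy 2.4.6 and SciPy 1.17.1, checked on simulated data. Genes, and strands where listed (28029 of 49939 genes), came from RefSeq tables on GRCm38.p6, which give gene boundaries and no exons. Promoters were the 250 bases before a start, and printed ones were trimmed to bases outside annotated genes. Shares have 95% Wilson intervals, differences Newcombe intervals and medians order-statistic intervals. Named pairs were all opposite-strand pairs at listed loci, and those ranked highest by summed score ranks of both lists, by shared bases or by identical edges. The pairs, loci and gene lists were chosen with earlier results of these data known. A few looked-up loci and 1 gene list are not reported here.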

Additional observations from a re-analysis of the deposited data

How the results depend on the processing

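The 9 summary values were each recomputed under some of 9 alternatives, which gave 56 values. Of these, 29 fell inside the 95% interval around the value given above. Requiring an overlap of 50% of both peaks gave 12.34% opposite strands, 57.47% over 2 or more genes, 36.63% over both strands, 9.895% with a gene under 1 peak alone, widths of 2858 bp in HEPA1-6 and 2313 bp in liver, and scores of 48 and 31. Keeping the higher-scoring 50% of each list gave 15.24%, 68.82% and 46.42% for the first 3 of these shares, and widths of 6024 bp and 2024.5 bp. Using each HEPA1-6 peak once gave 12.68%, 57.59%, 37.34% and 26.49%, widths of 3523 bp and 1573.5 bp, and scores of 38 and 26. Adding 1 kb to both sides of genes gave 73.04% over 2 or more genes, 49.97% over both strands and 34.74% with a gene under 1 peak alone, and protein-coding genes alone gave 45.76%, 31.82% and 33.18%. Using each liver peak once, an alternative chosen after seeing the data, gave 1516 opposite pairs of 10864 and moved none of the 9 values out of their intervals. In these 9 alternatives every share and median compared was higher in opposite-strand than in same-strand pairs, except that protein-coding genes alone leave no named antisense transcript. No paired analysis was possible because each source has 1 list, and for the same reason no replicate could be left out. Read depth is unknown, so a missing peak in 1 source sets no limit on its signal.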
